A study of Mus musculus with 18 samples.

Results

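The uninjured embryonic dorsal root ganglion (eDRG) spot culture was represented by 3 of the 18 RNA-seq libraries of the series, the ones whose titles name them as Control replicates 1, 2 and 3. Members were chosen by that label alone, and no library from an injured culture was used. The cultures came from DRG of CD-1 mouse embryos at stage e13.5, were kept with the mitotic inhibitor 5-fluorodeoxyuridine (FDU), and were collected at day in vitro 7 (DIV7) without being cut. All libraries of the series shared the strain, the age at dissection and FDU, so the effect of FDU could not be read from them. Embryos were not separated by sex in the labels. Each library was made from a whole culture that can hold other cells beside neurons, and in such bulk RNA fewer cells of a type and less RNA per cell cannot be told apart. With 1 group there was no contrast to test, and every value below is a description with its spread over 3 libraries (mean ± SD, n = 3). The labels do not say whether the replicates came from separate dissections, so the SD may be technical.

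DRG neurons carry touch, position, temperature, itch and pain from the body to the spinal cord. They arise from the neural crest, switch on the transcription factors Pou4f1 and Isl1 when they leave the cell cycle, and then split into subtypes under the control of further transcription factors and of trophic factors from their targets. Neurons that depend on BDNF or NT-3 use the receptor kinases TrkB (Ntrk2) and TrkC (Ntrk3).

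The 3 libraries held 20428645, 13756966 and 20019792 counts on genes. A further 27.0%, 27.8% and 31.2% of all entries were on no gene, and the share outside annotated exons was 8.00%, 8.51% and 13.3%, highest in replicate 3. Levels are given as counts scaled to the library total on genes (CPM) for a gene across libraries and as RPKM, CPM per kilobase of annotated exon, wherever genes are compared with each other. A gene counted as detected when each library had over 3 counts for it, which is 0.147, 0.218 and 0.150 CPM, and 15541 of 47643 genes were detected. Among 21607 nuclear protein-coding genes, 9878 (45.7%) exceeded 1 RPKM in every library, 3577 exceeded 10 RPKM, 237 exceeded 100 RPKM, and 7164 stayed at 3 counts or below in all libraries. RPKM of these 21607 genes ranked alike between libraries, with Spearman's rho of 0.980 for each of the 3 pairs. That correlation is across genes, which are not independent replicates. No pair of libraries was a duplicate, since the chi-square statistic per degree of freedom between them was 12.7 to 32.6.

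The labelled cell type was checked first with Tubb3, Avil and Pou4f1. Tubb3 (ENSMUSG00000062380, chromosome 8, 123411424 to 123422015), the neuronal class III beta-tubulin, was at 1676, 1637 and 1395 RPKM in replicates 1, 2 and 3 and ranked 3 among nuclear protein-coding genes in each library. Avil, which encodes the actin-binding protein advillin and is used as a marker of peripheral sensory neurons, was at 177, 209 and 268 RPKM (218 ± 46.2). Pou4f1, the POU homeobox factor Brn3a, was at 56.7, 56.03 and 67.3 RPKM (60.03 ± 6.33). Replicate 3 was the highest for Avil and Pou4f1 and the lowest for Tubb3, and all 3 genes stood far above the median nuclear protein-coding gene, which was at 0.697 RPKM. All 20 genes of a core list of neuronal and sensory neuron genes exceeded 1 RPKM in every library. Their lowest member was Rbfox3, the antigen NeuN, at 16.1, 14.3 and 21.1 RPKM, and Isl1, a LIM homeobox factor of sensory neurons, came next at 24.3, 19.4 and 14.4 RPKM.

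Cytoskeletal genes led the nuclear protein-coding genes, while some mitochondrially encoded and noncoding RNAs, described below, were higher. Tuba1a, an alpha-tubulin of growing neurons, was the highest nuclear protein-coding gene in each library, at 2714, 2707 and 2556 RPKM. Prph, the intermediate filament protein peripherin of peripheral neurons, ranked 2 at 1863, 1949.8 and 2195 RPKM. Tuba1a shares 65.7% of its windows of 1 read length with other genes, so its value is uncertain, whereas Prph and Tubb3 share none. The rest of the 15 highest were Tubb2a at 1056 ± 41.1 RPKM, Calm2 at 989 ± 68.9, Actb at 982 ± 85.7, Eef1a1 at 922 ± 23.8, Sncg at 910.0 ± 205, Hsp90ab1 at 853 ± 12.4, Tubb5 at 833 ± 32.3, Nefl at 821 ± 96.2, Stmn3 at 814 ± 48.8, Gap43 at 760.4 ± 60.3, Calm3 at 733 ± 51.8 and Scd2 at 701 ± 61.2. These encode tubulins, actin, calmodulin, a translation elongation factor, gamma-synuclein, a chaperone, a neurofilament subunit, a microtubule regulator of the stathmin family, the growth-associated protein GAP-43 and a fatty acid desaturase. Of the 15 highest genes in each library, 13 were in the list of all 3 libraries, and of the 100 highest, 85 were. The order held less well for Sncg, which stood at 1126, 888 and 716 RPKM and ranked 4, 8 and 15. The 15 alpha- and beta-tubulin genes took 2.04%, 1.98% and 1.80% of the counts on nuclear protein-coding genes.

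**Figure D1:**
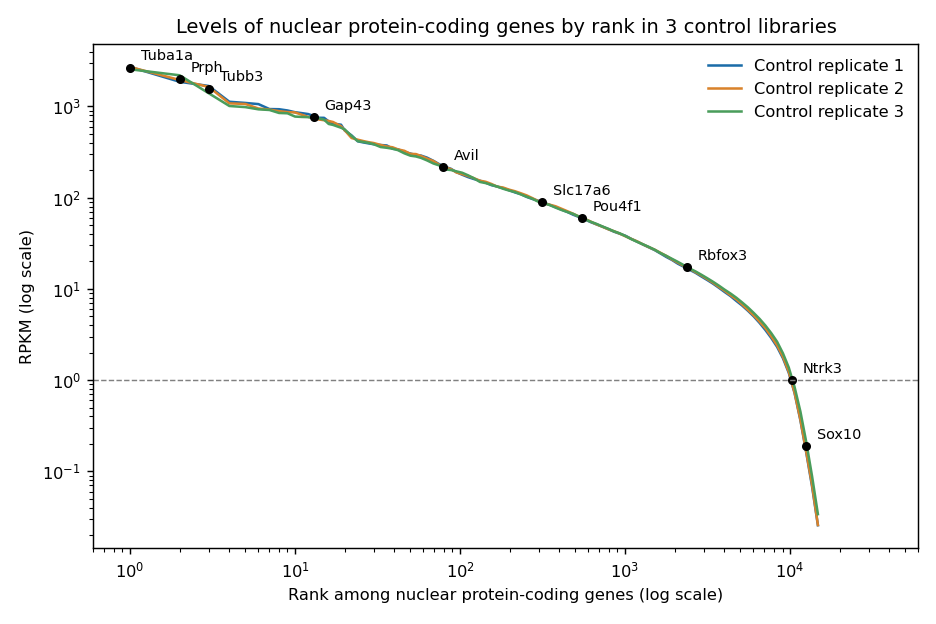
RPKM against rank for nuclear protein-coding genes in the 3 control libraries, both axes on a log scale, with the mean RPKM of named genes as black points and 1 RPKM as a dashed line. The 3 curves lie close together, from 186 ± 3.38 RPKM at rank 100 to 7.05 ± 0.275 RPKM at rank 5000 and 1.14 ± 0.0904 RPKM at rank 10000.

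The start regions of the leading genes are shown for comparison with those of the marker genes and of a silent receptor. RefSeq start sites (build GRCm38.p6) were given for 9 of the 15 highest genes, and the 60 bases before the start lay in an annotated exon for 5 of these, among them Tuba1a and Tubb3, which are left out. The other 4 are given with Avil, Pou4f1 and Mrgprd, an itch and pain receptor gene with no count in any of the 3 libraries. Each is written 5′ to 3′ on the gene's strand, and capitals mark TATAAA, the usual TATA box, or GGGCGG, a GC box, on either strand.
Prph (chr15:99055114-99055173, + strand): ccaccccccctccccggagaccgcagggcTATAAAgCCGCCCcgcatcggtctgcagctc
Tubb2a (chr13:34078009-34078068, - strand): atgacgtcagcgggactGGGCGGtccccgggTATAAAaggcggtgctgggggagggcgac
Eef1a1 (chr9:78481725-78481784, - strand): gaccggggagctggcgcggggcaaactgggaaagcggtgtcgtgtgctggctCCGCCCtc
Stmn3 (chr2:181314501-181314560, - strand): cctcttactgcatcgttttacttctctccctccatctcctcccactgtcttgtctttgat
Avil (chr10:127000649-127000708, + strand): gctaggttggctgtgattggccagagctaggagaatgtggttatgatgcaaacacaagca
Pou4f1 (chr14:104468000-104468059, - strand): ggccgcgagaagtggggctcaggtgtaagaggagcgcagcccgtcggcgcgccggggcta
Mrgprd (chr7:145314775-145314834, + strand): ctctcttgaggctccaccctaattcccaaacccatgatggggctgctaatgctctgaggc
TATAAA began 31 bases before the start in Prph and 29 bases before it in Tubb2a, and it was absent from the stretches of Eef1a1, Stmn3, Avil, Pou4f1 and Mrgprd. In Prph the GC box follows the TATA box on the opposite strand, and the motifs do not overlap. A start region was given for 16387 nuclear protein-coding genes, and 4.52% of these had TATAAA on either strand within 60 bases before the start. The share was 9.82% of 5145 genes not over 3 counts in any library, 1.22% of 7859 genes over 1 RPKM in every library, and 4.07% (7 of 172) of those over 100 RPKM. GGGCGG within 250 bases before the start went the other way between the first 2 classes. It was present in 44.5% of all these genes, in 14.8% of those not over 3 counts, in 62.9% of those over 1 RPKM and in 56.4% of those over 100 RPKM. The ratio of observed to expected CpG over the same 250 bases had a median of 0.177 in the first class and 0.761 in the second. Genes were placed in these classes by their own level, a motif match is not a site, and a start in culture can differ from the RefSeq start.

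Outside the nuclear protein-coding genes, ribosomal RNA of the mitochondria took the largest part of the counts. Mitochondrially encoded 16S and 12S ribosomal RNA (mt-Rnr2 and mt-Rnr1) together held 16.9%, 15.3% and 12.9% of the counts on genes in replicates 1, 2 and 3, lowest in replicate 3. Among mitochondrial messenger RNAs, mt-Co1 stood at 6608, 5467 and 4954 RPKM, mt-Nd1 at 4720.1, 3924 and 4204 RPKM and mt-Cytb at 3345, 2991 and 2787 RPKM. In contrast, mt-Co2, mt-Co3 and mt-Atp6 were listed at 1.82 ± 0.283, 1.79 ± 0.562 and 1.52 ± 0.436 RPKM. Almost all windows of 1 read length of those 3 genes also occur in other annotated genes, and reads that aligned at several places were set apart as 14.96% to 16.2% of all entries, so these 3 levels cannot be read as low expression. Of the noncoding RNAs of at least 200 bases beyond these, the highest were Rn7sk, the 7SK RNA that holds back transcription elongation, at 8458, 11699 and 10709 RPKM, Gm26917, an annotated locus with ribosomal RNA sequence, at 1999.7, 2935 and 2700.3 RPKM, and Rpph1, the RNA of ribonuclease P, at 1142, 1721 and 1037 RPKM. Rn7sk and Rpph1 share over 60% of their windows with other genes and are uncertain. Malat1, a nuclear long noncoding RNA, was next at 346, 390.0 and 917 RPKM. Replicate 3 was 2.65 times as high as replicate 1 for Malat1, and Meg3, another nuclear noncoding RNA, showed the same order at 54.3, 55.7 and 122 RPKM. The share of entries outside exons, given above, was also highest in replicate 3, and its part in these levels was not tested. Malat1 and Meg3 take up a small part of the whole, since the class of long intergenic noncoding RNAs held 1.18%, 1.53% and 2.00% of the counts.

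Genes of other cell types were low. Lists for satellite glia and Schwann cells, fibroblasts, endothelium, blood and immune cells, muscle and cartilage, epithelium, sympathetic and enteric neurons and central neurons held 151 matched genes once genes shared with the neuronal lists were left out, and 16 of these exceeded 1 RPKM in every library while 62 stayed at 3 counts or below in all. The median of the 151 genes was 0.0302, 0.0477 and 0.0719 RPKM, against 84.2, 97.7 and 87.0 RPKM for the 20 core neuronal genes. In each library 3 of the 151 genes lay above the lowest core gene. These were S100b at 83.7, 67.9 and 45.5 RPKM, Tfrc at 43.8, 26.9 and 42.1 RPKM and Pmp22 at 36.5, 40.7 and 30.7 RPKM, which encode a calcium-binding protein, the transferrin receptor and a peripheral myelin protein, and S100b and Tfrc are also made by neurons. Across 21607 nuclear protein-coding genes, 45.7% exceeded 1 RPKM in every library, against 10.6% of these 151.

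Glial genes did not follow 1 order over the libraries. Of the 24 listed, 6 (25%) exceeded 1 RPKM in every library, against 45.7% of all nuclear protein-coding genes, and 3 stayed at 3 counts or below in all. The summed level of the 24 was 164, 147 and 123 RPKM, lowest in replicate 3. The 4 highest made up most of that sum and were each lowest in replicate 3. They were S100b and Pmp22, given above, Glul, glutamine synthetase, at 16.01, 12.4 and 11.5 RPKM and Mbp, myelin basic protein, at 13.3, 13.7 and 11.1 RPKM. Cnp, an enzyme of myelinating glia, was at 7.25, 6.11 and 7.08 RPKM. Sox10, the transcription factor of glia and their precursors, was highest in replicate 3, at 0.0481, 0.0238 and 0.491 RPKM. It was chosen after its values were seen, as were Apoe, a lipid carrier abundant in satellite glia, at 2.68, 0.612 and 9.72 RPKM, and Postn, a matrix protein of fibroblasts, at 0.321, 0.0835 and 1.33 RPKM. Replicate 3 held the highest value for 15 of 24 glial genes and for 14 of 19 fibroblast genes, and for 14 and 12 of them with TMM factors. Over all 13079 detected nuclear protein-coding genes it was the highest for 49.9%, and for 32.7% with TMM factors. The 2 lowest genes of the glial list were Gfap, an intermediate filament of reactive glia, at 0.0116, 0.0172 and 0.0118 RPKM, and Mag, a myelin adhesion protein, at 0.0120, 0.0536 and 0.0123 RPKM. Embryonic haemoglobin was present in every library, with Hbb-y at 2.40, 12.5 and 14.05 RPKM, lowest in replicate 1. Egfl7 of the endothelial list was at 4.73, 6.13 and 6.54 RPKM. Aif1 and C1qb of the myeloid list were at 2.43, 1.52 and 1.30 and 1.17, 1.07 and 1.29 RPKM. Acta1 of the muscle list was at 2.61, 2.93 and 2.73 RPKM, and the highest mean on the epithelium list was 1.47 RPKM. Of 17 muscle and cartilage genes 10, and of 10 epithelium genes 8, stayed at 3 counts or below in all libraries, against 33.2% of all nuclear protein-coding genes. Among those 10 and 8 genes, Myod1, Myog, Pax7, Krt5, Krt8 and Trp63, which define muscle and epithelium, had no count in any library. Most central neuron genes were also near zero. Of the 19 listed, 11 stayed at 3 counts or below in all libraries. A single count gave the highest CPM in replicate 2, the shallowest library. Replicate 2 was the highest for 11 of the 19 genes. The share of 24.1% over all detected nuclear protein-coding genes leaves such low genes out and is not a like base. Among the genes highest in replicate 2 were Gad1 at 0, 0.228 and 0.0131 RPKM and Slc6a5 at 0, 0.232 and 0.0208 RPKM, which serve GABA synthesis and glycine uptake. The highest central gene was Slc17a7, the vesicular glutamate transporter VGLUT1, at 2.68, 1.91 and 3.35 RPKM, which sensory neurons also use. Phox2a, a transcription factor of autonomic neurons, stood at 1.73, 4.54 and 1.77 RPKM, highest in replicate 2.

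**Figure D2:**
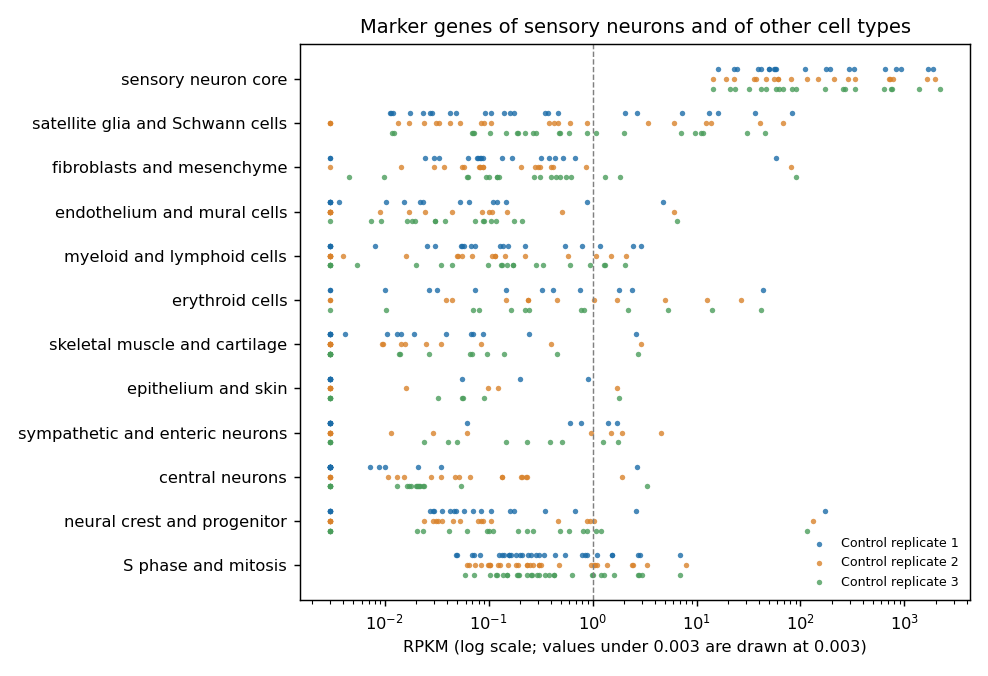
RPKM of each gene in 12 marker lists, on a log axis with values under 0.003 drawn at 0.003, for the 3 control libraries in 3 colours, with 1 RPKM as a dashed line. All 20 core neuronal genes lie to the right of 1 RPKM, whereas most genes of the other lists lie to its left; the exceptions farthest to the right are Vim, Thy1, S100b, Tfrc and Pmp22.

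Vim and Thy1 sit in lists of progenitors and of fibroblasts but are also made by neurons. Vim, the intermediate filament vimentin, was at 171, 132 and 117 RPKM and Thy1, a surface antigen of projection neurons, at 57.9, 80.5 and 90.6 RPKM. Apart from Vim, none of the 22 listed neural crest and progenitor genes exceeded 1 RPKM in every library. The study took Rtn4, Plxna4 and Dpysl3 as its neural progenitor markers, and it concluded that progenitors were present beside sensory neurons. Of these markers, Dpysl3, which is outside the list, was at 507, 432 and 474 RPKM, and Plxna4 is given below. Most genes of S phase and mitosis were low. Pcna, the sliding clamp of replication and repair, was at 6.96, 7.84 and 6.87 RPKM, and the replicative helicase subunits Mcm4 and Mcm6 were at 2.71, 3.36 and 2.77 and 2.89, 2.38 and 2.76 RPKM. The lowest of these 30 genes were Cenpa, the centromeric histone, at 0.0501, 0.0620 and 0.0597 RPKM and Top2a, the mitotic topoisomerase, at 0.0489, 0.0645 and 0.0720 RPKM. Together 6 of the 30 genes (20%) exceeded 1 RPKM in every library, against 45.7% of all nuclear protein-coding genes, and each of the 30 had over 3 counts in at least 1 library. FDU blocks DNA synthesis, and without a culture lacking FDU its bearing on these levels was not analysed here.

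Receptors for trophic factors spanned a wide range. Of 31, 15 (48.4%) exceeded 1 RPKM in every library, near the 45.7% of all nuclear protein-coding genes. Ngfr, the p75 neurotrophin receptor, was at 406, 312 and 385 RPKM (368 ± 49.4). Ntrk3 stood at 0.623, 1.18 and 1.17 RPKM, on both sides of 1 RPKM, and Ntrk2 at 0.0381, 0.158 and 0.0518 RPKM. Receptors of the GDNF family differed widely in level. Ret, their shared signalling subunit, was at 60, 63.5 and 53.8 RPKM. Of its binding partners, Gfra1, which binds GDNF, was at 8.61, 14.6 and 20.7 RPKM, Gfra4 at 4.34, 5.67 and 5.91 RPKM, Gfra3, which binds artemin, at 2.11, 0.328 and 0.600 RPKM, and Gfra2, which binds neurturin, at 0.0277, 0.123 and 0.226 RPKM. Replicate 1 was the lowest library for Gfra1 and the highest for Gfra3. The cytokine receptor subunits Lifr and Il6st were at 127, 106 and 98.7 and 53.7, 61.8 and 53.3 RPKM. Met, the receptor of hepatocyte growth factor, and Fgfr3 were the lowest, at 0.00637, 0.00947 and 0 and 0.00684, 0.0102 and 0.0140 RPKM.

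Trophic ligand genes were also measured in the culture. Gdnf had counts in replicate 3 alone, at 0.0544 RPKM. Bdnf was at 3.63, 4.06 and 4.18 RPKM. The highest were Kitl, the ligand of the receptor Kit, at 123, 78.8 and 73.8 RPKM, and Fgf13, an intracellular FGF homolog that binds sodium channels, at 72.8, 48.9 and 48.2 RPKM. Both were highest in replicate 1. Next came Ptn, pleiotrophin, at 26.6, 23.9 and 25.6 RPKM, and Nrg1, the axonal signal to Schwann cells, at 15.8, 19.8 and 16.8 RPKM. In all, 5 of 17 ligand genes (29.4%) exceeded 1 RPKM in every library, against 45.7% of all nuclear protein-coding genes, 10 more had over 3 counts in at least 1 library, and 2 had none over 3 counts.

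Several transcription factors of postmitotic sensory neurons were high, whereas some of precursors and of mature subtypes were near zero. Prdm12, a factor required for nociceptors, was the highest of 38 at 66.1, 78.3 and 95.4 RPKM. Klf7, a Krueppel-like factor, was at 35.8, 36.4 and 35.7 RPKM, and Tlx3, a homeobox factor of glutamatergic sensory neurons, at 20.4, 16.5 and 20.9 RPKM. Prrxl1, a paired homeobox factor of small-diameter neurons, was at 11.6, 18.4 and 16.4 RPKM and Isl2 at 13.9, 12.1 and 26.3 RPKM. Etv4, an ETS factor, was at 21.9, 18.8 and 13 RPKM. Runx1, which directs the nonpeptidergic and cold-sensing lineages, was at 0.199, 0.103 and 0.145 RPKM, and Runx3, which directs proprioceptors, was at 0, 0.0291 and 0 RPKM. Neurog1 and Neurog2, the proneural factors of DRG precursors, were at 0.0290, 0 and 0 and 0, 0.0326 and 0 RPKM. In all, 21 of the 38 factors (55.3%) exceeded 1 RPKM in every library, against 45.7% of all nuclear protein-coding genes. A further 10 lay between the limits, and 7 stayed at 3 counts or below in all. The median of the 38 was 2.50 RPKM.

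Neuropeptide genes had the largest spread between the control libraries of all lists and families with a member of at least 10 CPM in the mean. Calca, which encodes CGRP, was at 291, 80.8 and 76.2 RPKM, so that replicate 1 was 3.81 times as high as replicate 3. Tac1, which encodes substance P, was at 15.7, 0.492 and 0.941 RPKM, with 53.3, 1.67 and 3.197 CPM. Its highest library was 31.9 times its lowest, the largest ratio among the 8603 protein-coding genes with a mean of at least 10 CPM. Calcb, the second CGRP gene, and Adcyap1, which encodes PACAP, were at 26.3, 18.9 and 13.6 and 6.36, 2.41 and 2.01 RPKM. Replicate 1 was the highest library for each of these 4 genes, also with TMM factors and DESeq2's size factors. Over the 20 peptide genes, replicate 1 was the highest for 7, replicate 2 for 10 and replicate 3 for 1, with the same counts under both of those scalings. Their summed level was 345, 112 and 98.3 RPKM, most of it Calca, and the median coefficient of variation of the 4 with a mean of at least 10 CPM was 74.5%, against 8.51% for nuclear protein-coding genes. Other peptides were low, and 4 of 20 (20%) exceeded 1 RPKM in every library, against 45.7% of all nuclear protein-coding genes. Sst and Npy, named after their values were seen, were highest in replicate 2, at 0, 2.02 and 0.277 and 0.0865, 1.67 and 0.0883 RPKM. Iapp and Ucn had no count in any library.

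Channels that transduce stimuli did not follow 1 order, and replicates 1, 2 and 3 were the highest for 8, 8 and 10 of the 26 listed. P2rx3, the ATP-gated channel of nociceptors, was the highest of 26 at 88.3, 139.7 and 199 RPKM, lowest in replicate 1 and highest in replicate 3. Piezo2, the touch channel, was at 57.3, 58.4 and 64.2 RPKM, and the acid-sensing channel subunit Asic3 at 31.4, 33.7 and 40.8 RPKM. The spread of Piezo2, at 59.98 ± 3.70, was smaller than that of P2rx3, at 142 ± 55.6. Among thermosensitive TRP channels, the cold channel Trpm8 was at 9.48, 9.03 and 7.70 RPKM, Trpv2 at 8.31, 8.56 and 8.10 RPKM and the capsaicin receptor Trpv1 at 1.24, 0.0790 and 0.299 RPKM. Trpa1, the irritant receptor, was at 0.0574, 0.0171 and 0.0234 RPKM. Trpm8 thus lay above Trpv1 in each library, by 7.66, 114 and 25.8 times. Replicate 1 was the highest for Trpv1, as it was for Calca and Tac1. In all, 14 of the 26 channels (53.8%) exceeded 1 RPKM in every library, against 45.7% of all nuclear protein-coding genes.

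Of the voltage-gated sodium channel genes, 12 of 15 (80%) exceeded 1 RPKM in every library, against 45.7% of all nuclear protein-coding genes. The pore subunits were led by Scn7a, a salt-sensing member of the family, at 90.5, 81.3 and 116 RPKM, Scn10a, the tetrodotoxin-resistant channel Nav1.8 of nociceptors, at 66.3, 50.99 and 65.9 RPKM, and Scn9a, the channel Nav1.7, at 47.99, 45.5 and 47.1 RPKM. Scn10a exceeded Scn9a in each library, by 0.47, 0.16 and 0.48 on the log2 scale. Scn11a, the channel Nav1.9, was at 7.92, 3.55 and 4.07 RPKM, highest in replicate 1. Scn3a, an embryonic channel, was lower than Scn10a in each library, at 6.91, 7.07 and 6.04 RPKM, a log2 ratio of -3.19 ± 0.31. Scn4a, the skeletal muscle channel, was at 0.0417, 0.0103 and 0.114 RPKM. The auxiliary subunits Scn3b and Scn2b, at 49.01, 56.8 and 58.8 and 40.6, 37.7 and 39.8 RPKM, exceeded Scn4b at 1.20, 0.686 and 0.772 RPKM.

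Of 24 G protein-coupled receptors of nociceptors and itch neurons, 11 (45.8%) exceeded 1 RPKM in every library. The share over all nuclear protein-coding genes was 45.7%. The GABA B receptor subunits Gabbr1 and Gabbr2 led at 119, 122 and 133 and 34.96, 38.8 and 45.2 RPKM, followed by the cannabinoid receptor Cnr1 at 24.3, 19.2 and 16.2 RPKM. The mu opioid receptor Oprm1 was at 5.96, 3.30 and 3.92 RPKM and the nociceptin receptor Oprl1 at 10.1, 7.24 and 6.32 RPKM. Delta and kappa opioid receptors (Oprd1 and Oprk1) were at 0.243, 0.669 and 0.547 and 0.235, 0.0715 and 0.153 RPKM. Among receptors of the Mas-related family, Mrgprx1 was at 7.51, 2.53 and 7.28 RPKM, while Mrgprd, Mrgprb4 and Mrgprb5 had no count and Mrgpra3 had counts in replicate 3 alone. Most Mrgpr genes of mature nonpeptidergic neurons in the list were thus not detectable at this depth.

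**Figure D3:**
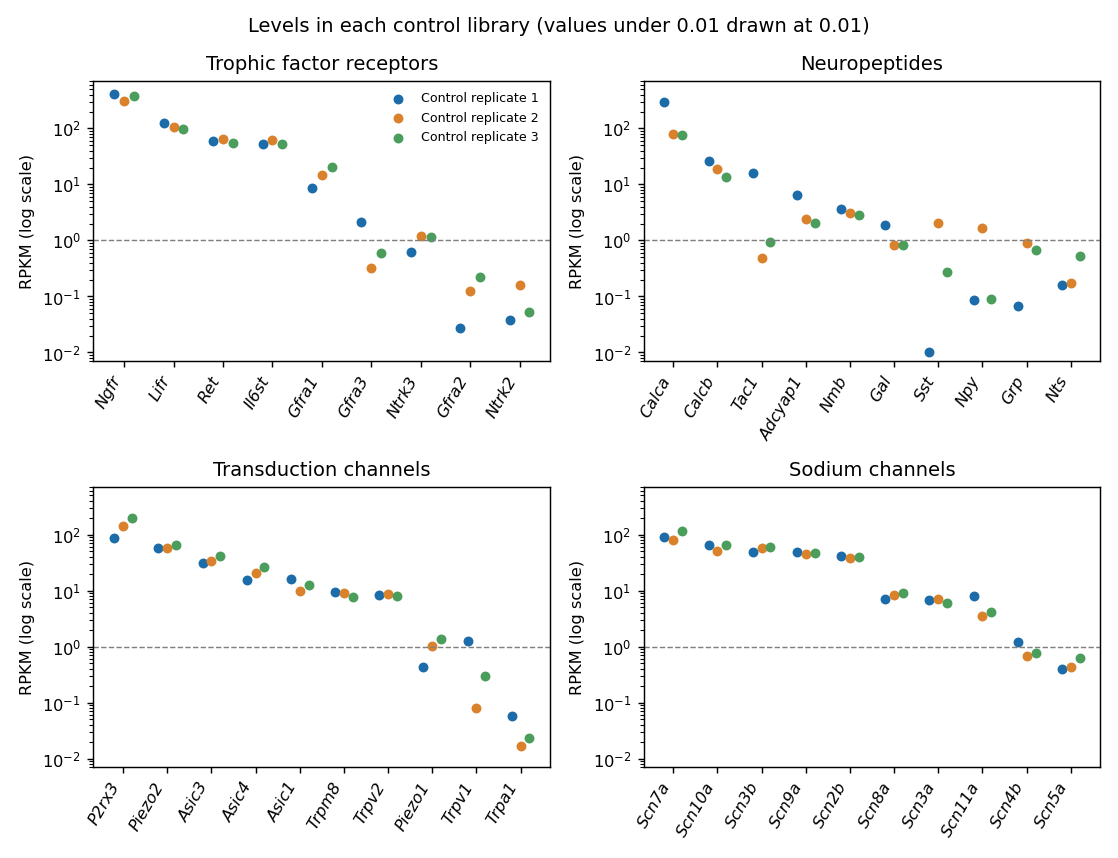
RPKM in each control library of 9 trophic factor receptors, 10 neuropeptides, 10 transduction channels and 10 sodium channel genes, on a log axis with values under 0.01 drawn at 0.01 and 1 RPKM as a dashed line. Points of 1 gene lie close together for Il6st, Piezo2 and Scn9a, and apart for Tac1, Sst, Npy and Trpv1.

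The transmitter phenotype was glutamatergic by its genes. Slc17a6, the vesicular glutamate transporter VGLUT2, was at 96.02, 89.2 and 80.7 RPKM. Slc17a6 exceeded Slc17a7 in each library, by 35.9, 46.6 and 24.1 times. The enzymes of GABA synthesis and the vesicular GABA transporter (Gad1, Gad2 and Slc32a1) had means of 0.0805 ± 0.128, 0.0758 ± 0.117 and 0.0233 ± 0.0264 RPKM, and the choline acetyltransferase Chat 0.00515 ± 0.00892. Th and Dbh, enzymes of catecholamine synthesis, were at 0.0621, 0.0615 and 0.232 and 0, 0 and 0.148 RPKM. Of 59 receptor channel subunits for transmitters, 18 (30.5%) exceeded 1 RPKM in every library, against 45.7% of all nuclear protein-coding genes. The AMPA receptor subunit Gria4 was at 13.7, 10.5 and 10.05 RPKM and the kainate receptor subunit Grik5 at 15.9, 18.2 and 22.8 RPKM. Htr3a, a subunit of the serotonin-gated channel, was at 22.8, 12.7 and 7.58 RPKM, highest in replicate 1.

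Pairs of genes that are used early and late in neuronal life gave a mixed picture. Slc12a2, the chloride importer NKCC1, was at 9.05, 10.7 and 11.1 RPKM and Slc12a5, the exporter KCC2, at 0.217, 0.498 and 0.423 RPKM, so the importer was 41.7, 21.5 and 26.2 times as high. Grin2b and Grin2a, the early and late NMDA receptor subunits, were both low at 0.640, 0.565 and 0.573 and 0.0136, 0.0486 and 0.0167 RPKM. Among neurofilaments, which come up as axons grow in calibre, Nefl was at 932, 769 and 763 RPKM, Nefm at 325, 335 and 336 RPKM and Nefh, the heavy subunit of mature axons, at 110.5, 115 and 83.3 RPKM. Dcx, doublecortin of migrating neurons, remained at 29.7, 26.4 and 25.6 RPKM, and Sox11, an embryonic SRY-box factor, at 13.1, 13.4 and 15.4 RPKM. Lin28a had no count, and Lin28b and Igf2bp1, RNA-binding proteins of embryonic tissue, were at 0.810, 0.882 and 1.25 and 0.152, 0.128 and 0.371 RPKM.

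The study describes 15 classes of DRG neurons, including a class with no assigned type, by 4 leading genes each, and 59 of these 60 genes were matched. Without the class of unassigned type, 4 of 55 matched genes exceeded 1 RPKM in every library, against 45.7% of all nuclear protein-coding genes. A further 15 stayed at 3 counts or below in all. The 4 genes over 1 RPKM were Trpm8 of the cold class, at values given above, Chst1, a sulfotransferase of the CGRP-Zeta class, at 13.3, 16.9 and 21.3 RPKM, Greb1l of the CGRP-Gamma class at 9.79, 9.17 and 6.23 RPKM and Aldh1l1, a folate enzyme of the Adelta-LTMR class, at 2.07, 3.40 and 2.00 RPKM. Aldh1l1 is also on the glial list used above, and its source in bulk RNA cannot be told. The 4 genes of the unassigned class, Tmsb4x, mt-Nd1, mt-Co1 and mt-Atp6, exceeded 1 RPKM in every library. Hrh1, a histamine receptor of the CGRP-Theta class, was at 1.98, 1.34 and 0.898 RPKM and Rgs6 of the Abeta-Field class at 0.952, 1.01 and 1.32 RPKM, near the limit of 1 RPKM. No leading gene of the proprioceptor or Mrgprd class was above 1 RPKM in any library, the highest being Fam167a at 0.252, 0.442 and 0.503 RPKM. The same held for the Abeta-RA-LTMR, C-LTMR, CGRP-Alpha and CGRP-Epsilion classes. Their highest values were 0.69 RPKM for Gabrg1 and 0.726 for Col24a1 in replicate 1. In replicate 2 they were 0.889 RPKM for Nkd2 and 0.380 for Slc6a7. A gene that marks a class well need not be abundant, and a class held by few cells would give a low level in bulk RNA. The study judged the classes by larger sets of class-specific genes and by clustering with DRG stages in vivo. It concluded that most neuronal subtypes were present, and that comparison was not repeated here.

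Hox genes, which give position along the body axis, were expressed mostly from the middle paralog groups, chiefly of clusters A and B. Of 39 Hox genes, 15 (38.5%) exceeded 1 RPKM in every library, against 45.7% of all nuclear protein-coding genes. Of these, 14 were among the 22 genes of paralog groups 4 to 10. By cluster, 6 of 11 genes in A, 5 of 10 in B, 2 of 9 in C and 2 of 9 in D exceeded it. Hoxa5 was the highest at 13.7, 24.8 and 16.8 RPKM, followed by Hoxa7 at 12.3, 16.7 and 14.8 RPKM, Hoxb7 at 12.7, 14.3 and 10.9 RPKM and Hoxb6 at 6.73, 18.8 and 7.83 RPKM. Hoxb6 was higher in replicate 2 than in the other two. Of the 8 genes in groups 1 to 3, Hoxd1 alone exceeded 1 RPKM in every library, at 7.57, 5.54 and 6.52 RPKM, and Hoxb1, next to it in group 1, had no count. None of the 9 genes of groups 11 to 13 exceeded 0.0692 RPKM in the mean, and 7 of them stayed at 3 counts or below in all libraries. Summed over genes, cluster A was at 54.4 ± 5.60 RPKM, cluster B at 39.6 ± 12.2, cluster D at 17.0 ± 2.51 and cluster C at 6.17 ± 1.08.

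**Figure D4:**
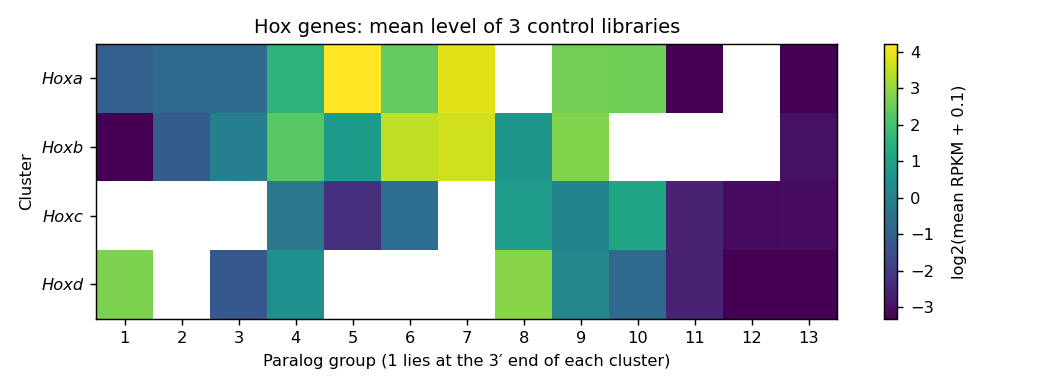
Mean RPKM of the 3 control libraries for 39 Hox genes, coloured as log2(mean RPKM + 0.1), with clusters in rows and paralog groups in columns and white where the mouse has no gene. Most bright cells lie in groups 4 to 10 of clusters A and B, with Hoxa5 brightest. Clusters C and D are mostly dimmer in these groups, apart from Hoxd8. Hoxd1 is the bright cell of groups 1 to 3, and groups 11 to 13 are dark.

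Genes of axonal transport, the cytoskeleton and synaptic vesicles were at high levels. All 25 axonal transport motor genes exceeded 1 RPKM in every library, against 45.7% of all nuclear protein-coding genes, with a median of 62.97 RPKM. Klc1, a kinesin light chain, was at 289, 269 and 283 RPKM, the synaptic vesicle precursor motor Kif1a at 216, 225 and 234 RPKM, the kinesin heavy chain Kif5a at 224, 214 and 236 RPKM and the dynein heavy chain Dync1h1 at 96.7, 117 and 139 RPKM. The lowest were Rhot1 and Trak1, adaptors that link mitochondria to motors, at 11.03, 11.5 and 11.2 and 11.3, 13.9 and 13.3 RPKM. All 28 genes of tubulins and neuronal cytoskeleton and 27 of 28 synaptic vesicle and release genes exceeded 1 RPKM in every library. Over all nuclear protein-coding genes the share was 45.7%. Complexin 1 (Cplx1), a clamp of vesicle fusion, was the highest of the synaptic list at 149, 189 and 191 RPKM, the calcium sensor family members Syt4 and Syt11 followed at 164, 132 and 149 and 144, 144 and 149 RPKM, and the exception was Syn3, a synapsin of early neurons, at 0.191, 0.278 and 0.321 RPKM. The median coefficient of variation over libraries was 4.90% for the motors, 8.72% for tubulins and cytoskeleton and 9.63% for the synaptic genes, against 8.51% for all nuclear protein-coding genes.

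Genes of energy metabolism and biosynthesis were present almost in full. The share of all nuclear protein-coding genes over 1 RPKM in every library, to be set beside each count here, was 45.7%. Of 85 cytosolic ribosomal protein genes 81 exceeded 1 RPKM in every library. Together the 85 held 3.62%, 3.58% and 3.39% of the summed RPKM of nuclear protein-coding genes. Of 82 nuclear respiratory chain subunits 78 and of 40 proteasome subunits 35 did so, and the lowest proteasome genes were Psmb11, of the thymus, and Psmb9, of the immunoproteasome, at 0.0138 ± 0.0159 and 0.0202 ± 0.00697 RPKM. All 19 glycolysis genes exceeded 1 RPKM. Aldoa, an aldolase, led at 482, 549 and 584 RPKM, with the lactate dehydrogenase Ldhb at 304, 353 and 351 RPKM, and Hk2, an inducible hexokinase, was lowest at 4.72, 7.98 and 11.5 RPKM. All 22 genes of a cholesterol synthesis and sterol regulation list exceeded 1 RPKM, with a median of 61.6 RPKM. The list also held the fatty acid desaturase Scd2. Scd2 and Hmgcs1, which makes HMG-CoA, led at 631, 734 and 739 and 376, 431 and 399 RPKM, and replicate 2 was the highest library for 17 of the 22 genes. With TMM factors or DESeq2's size factors it was the highest for 20 and 19 of them. Over all 13079 detected nuclear protein-coding genes, replicate 2 was the highest for 24.1%. This share was 27.5% with TMM factors and 27.4% with DESeq2's size factors.

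Of potassium channel genes, 41 of 93 (44.1%) exceeded 1 RPKM in every library, near the 45.7% of all nuclear protein-coding genes. They were led by the auxiliary subunit Kcnab2 at 92.9, 87.01 and 95.8 RPKM, Kcna6, a delayed rectifier, at 39.5, 35.6 and 33.4 RPKM and Kcnh6 at 21.5, 24.4 and 31.2 RPKM. Of calcium channel genes, 17 of 26 (65.4%) exceeded 1 RPKM in every library. The N-type pore Cacna1b, which drives release at sensory terminals, was at 39.98, 42.4 and 49.01 RPKM, the beta subunit Cacnb3 at 42.4, 42.4 and 47.4 RPKM and Cacna2d1, the binding site of gabapentin, at 33.7, 34.8 and 32.4 RPKM. Cacna1s, of skeletal muscle, had a mean of 0.00370 ± 0.00641 RPKM. Of 70 guidance genes 41 (58.6%) did so. Nrp1, the receptor of semaphorin 3A, was at 40.8, 31.98 and 27.1 RPKM and Plxna4, its plexin partner, at 27.9, 29.7 and 30.3 RPKM. Of 57 clustered protocadherins 24 (42.1%) exceeded 1 RPKM in every library. Pcdhac2, a C-type isoform, was the highest at 21.5, 27.6 and 32.5 RPKM, although a part of its windows is shared with other isoforms and the value is uncertain.

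Genes tied to axon growth were at high levels before any cut. Stmn3, Gap43, Basp1 and Stmn2, of growth cones and microtubule regulation, were the highest of 27 listed genes. Of the 27, 21 (77.8%) exceeded 1 RPKM in every library, against 45.7% of all nuclear protein-coding genes. Basp1 was at 378, 336 and 381 RPKM and Stmn2 at 289.8, 285 and 257 RPKM. Among injury-linked factors, Jun, a bZIP factor, was at 14.8, 9.44 and 12.5 RPKM, Atf3, a bZIP factor widely used to mark injured neurons, at 3.41, 6.48 and 8.95 RPKM, and Sprr1a, a small proline-rich protein of injured neurons, had no count. Atf3 was lowest in replicate 1 and highest in replicate 3. Jun, Atf3, Nmnat2 and Sarm1 lie outside the highest and lowest members of the list and were named after their values were seen. Nmnat2, a labile axon survival enzyme, was at 32.5, 35.2 and 34.5 RPKM and Sarm1, the enzyme that executes axon degeneration, at 16.98, 18.8 and 18.6 RPKM.

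Most genes of families known from other organs were at or below the limit of detection. None of 1090 olfactory receptors, 295 vomeronasal receptors, 56 keratin-associated proteins or 64 defensins exceeded 1 RPKM in every library, and 1486 of these 1505 genes stayed at 3 counts or below in all libraries. Of all nuclear protein-coding genes, 45.7% exceeded 1 RPKM in every library and 33.2% stayed at 3 counts or below in all. The highest olfactory receptor, Olfr330, was at 0.235, 0.399 and 0.549 RPKM and the highest vomeronasal receptor, Vmn1r4, at 0.144, 0.117 and 0.160 RPKM.

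Most genes varied little between the control libraries. Over 8603 protein-coding genes with a mean of at least 10 CPM, the median ratio of the highest to the lowest library was 1.18, and 182 genes (2.12%) had a ratio over 2. The common biological coefficient of variation, estimated with edgeR over all genes with a mean of at least 10 CPM, was 0.132. After Tac1, the largest ratios were those of Ifit3, an interferon-induced gene, at 59.6, 15.7 and 8.89 CPM, Cwc22, a splicing factor, at 12.2, 13.8 and 78.2 CPM, and Mamdc2, a matrix protein, at 5.38, 20.4 and 32.6 CPM. F2r, the thrombin receptor PAR1, was at 259, 216 and 46.8 CPM, Vcan, the matrix proteoglycan versican, at 47.3, 12.6 and 8.59 CPM, and Rnf213, a large ubiquitin ligase, at 12.6, 20.9 and 64.8 CPM. Rhoc, a small GTPase, was at 11.7, 15.2 and 58.1 CPM and Kcnv1, a silent potassium channel subunit, at 61.1, 12.3 and 13.9 CPM. Gm10031, at 24.03, 4.58 and 8.69 CPM, shares 79.6% of its windows with other genes and is uncertain. Replicate 1 was the highest for Tac1, Ifit3, F2r, Vcan, Gm10031 and Kcnv1, and replicate 3 for Cwc22, Mamdc2, Rnf213 and Rhoc. Replicate 3 was the highest library for 106 of the 182 genes, replicate 1 for 58 and replicate 2 for 18. With TMM factors 169 genes had a ratio over 2, and the highest library was replicate 3 for 62, replicate 1 for 84 and replicate 2 for 23. Without replicate 1 the count was 43, without replicate 3 it was 69 and without replicate 2 it was 141. The mitochondrial ribosomal RNA share and the share outside exons also differed between replicates 1 and 3, and their part was not tested.

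**Figure D5:**
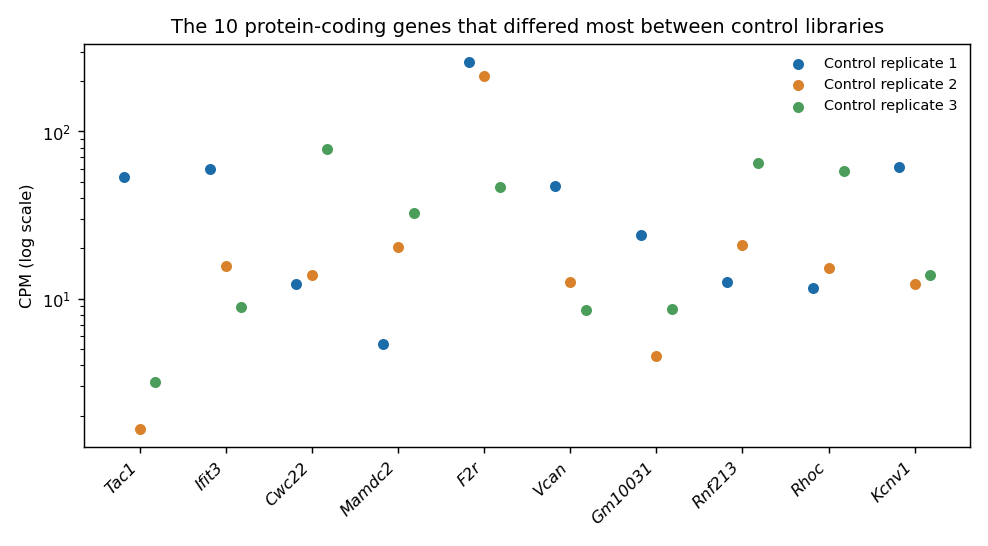
CPM, on a log axis, in each control library of the 10 protein-coding genes with a mean of at least 10 CPM and the largest ratio of the highest to the lowest library. Tac1 spans 1.67 to 53.3 CPM, and in 6 of the 10 genes replicate 1 is the highest.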

How the data were processed

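Total RNA of 3 uninjured eDRG spot cultures was sequenced after depletion of ribosomal RNA and SMARTer cDNA synthesis, per the labels. The deposited files hold raw counts per gene, which the authors made from reads aligned to mm10 with STAR. Their methods name featureCounts and GENCODE vM20 and the submitters' processing notes name HTSeq, whose entry names close each file; strand use is not given in the sources used here. Strandless counting would merge a gene with its antisense partner. The 5 closing entries for reads on no gene stayed out of the totals.

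Of 47643 gene identifiers, 47224 were matched without their version to GENCODE vM21 (GRCm38), which gave symbols, exon lengths and coordinates, and 419 were not matched. CPM was the count over the library's total on genes, and RPKM was CPM per kilobase of the union of exons. Genes that share sequence were found as the percent of transcript windows of 1 read length also present in another gene. TMM factors and dispersion came from edgeR 4.0.16, size factors from DESeq2 1.42.0 (R 4.3.3), and the rest from Python 3.11.15. The scripts were tested on simulated data.

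Members and gene lists were chosen with earlier results of these data known. Named genes were Tubb3, Avil and Pou4f1, the 15 nuclear protein-coding and 6 noncoding genes of at least 200 bases with the highest mean RPKM, the 4 highest and 2 lowest members of each list, any receptor, channel, transcription factor, Hox, transmitter or early and late gene, and the 10 least even genes. Genes outside this rule are said to be so or mark a class or cell type. The leading genes of subtypes are those of the study. With 1 group no test was run, and replicates number 3, so values are mean ± SD. Counts of 3 or fewer were read as not detected, which covers counting error alone. Injured libraries were not used here, and some results, a planned ratio and some genes that the naming rule covers among them, and a culture component are not reported here.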

Additional observations from a re-analysis of the deposited data

How the results depend on the processing

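Of 87 alternative settings over 11 results, 74 stayed within 1.5 times of a count or within 1 SD of a value. Only the log2 ratio of Scn3a to Scn10a could change sign, and it did not. TPM cannot alter that ratio or the share of ribosomal proteins, so those settings were among the 74 by construction. At a limit of 5 RPKM, 5774 protein-coding, 6 non-neuronal marker and 7 Hox genes remained over the limit. Subtype genes, here with the class of unassigned type included, numbered 8 over 1 RPKM and 13 over 0.5 RPKM. TPM, which is a larger number than RPKM for the same gene here, gave 28 non-neuronal, 24 Hox and 16 subtype genes over 1. With the longest transcript as length, ribosomal proteins held 3.94% of the summed RPKM. Without mitochondrially encoded genes and ribosomal RNA loci, the 100 highest genes held 18.2% of the counts, against 32.5%. Genes uneven between libraries numbered 823 from a mean of 1 CPM and 4693 with no filter, and leaving out 1 library gave 43 to 141, partly because fewer libraries enter the ratio. No paired analysis was possible because there was 1 group and no test. Depth limits statements on genes with no more than 3 counts.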

Other observations

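Imprinted genes, which are expressed from 1 parental allele, exceeded 1 RPKM in every library for 17 of the 24 listed (70.8%), against 45.7% of all nuclear protein-coding genes. Nnat, neuronatin, was at 194, 149 and 108 RPKM and Ndn, necdin, a growth suppressor of neurons, at 117, 132 and 128 RPKM. Meg3 followed, and Snrpn, of the Prader-Willi region, was at 66.3, 66.7 and 71.98 RPKM. The lowest were Cdkn1c, a cell-cycle inhibitor, at 0.0720, 0.143 and 0.0735 RPKM and Igf2, a fetal growth factor, at 0.171, 0.191 and 0.445 RPKM. Igf2 shares 59.3% of its windows with another annotated gene.

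Transcripts of both sex chromosomes were found in every library. Xist, transcribed from the inactive X chromosome, was at 3.18, 6.54 and 9.11 RPKM, and the Y-linked helicase gene Ddx3y at 15.1, 9.83 and 8.82 RPKM. Replicate 1 was lowest for Xist and highest for Ddx3y, and replicate 3 was the reverse. Its X-linked counterpart Ddx3x was at 65.5, 61.8 and 63.04 RPKM, with little spread. The labels do not give the sex of the embryos.

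Target genes of p53 were present without injury. Of 20 listed genes 13 (65%) exceeded 1 RPKM in every library, against 45.7% of all nuclear protein-coding genes. They were led by Ccng1, cyclin G1, at 57.5, 58.5 and 57.2 RPKM and Cdkn1a, the cell-cycle inhibitor p21, at 22.8, 31.1 and 29.5 RPKM. Bax, a promoter of apoptosis, was at 17.8, 19.5 and 23.4 RPKM. Of 65 replication-dependent histone genes, 29 (44.6%) exceeded 1 RPKM in every library, near the share of all nuclear protein-coding genes. A further 21 stayed at 3 counts or below in all. Hist1h4d was at 42.9, 50.7 and 44.1 RPKM and Hist1h1c at 43.99, 33.97 and 35.6 RPKM.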
